A study of Mus musculus with 6 samples.

Results

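The endothelin system was described here through 4 genes of the 34745 in the deposited count table: the receptors Ednrb and Ednra, the ligand gene Edn1 and the processing protease gene Ece1. The members were chosen by symbol around Ednrb, which was picked because it was the most abundant of the largest rises after inhibitor treatment. The difference between the groups therefore chose the set, and the members' differences are given as a description with no test. All 6 RNA libraries came from wild-type mouse primary macrophages grown from bone marrow with M-CSF (20 ng/ml), a macrophage growth factor. Of these, 3 had been pretreated with DMSO, the solvent control, and 3 with an inhibitor of KAT8, a lysine acetyltransferase that modifies histone H4. Both groups were then stimulated for 6 h with R848 (100 ng/ml), a small-molecule agonist of Toll-like receptor 7. No unstimulated cells were among the samples, so each difference is between stimulated cultures, and the labels name neither the compound, its dose nor the length of pretreatment. Neither sex, age nor strain of the animals is given, nor is it stated that each replicate was its own animal or culture. The spread between replicates may therefore be technical.

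Endothelins are short peptides best known as constrictors of blood vessels. Edn1 encodes a precursor that is trimmed by furin-type convertases and then cut by the membrane metalloprotease Ece1 to give the active peptide. Ednra, on smooth muscle, drives contraction, whereas Ednrb, on endothelium, releases nitric oxide and prostacyclin and takes endothelin out of the circulation. Ednrb is also required by neural crest cells that form pigment cells and the nerve cells of the gut. Macrophages are a known source of endothelin, and make it when Toll-like receptors are engaged.

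Total counts ranged from 18441352 to 25089320 per library. Levels are CPM, each count relative to the library total, scaled by the trimmed mean of M values (TMM) and given as mean ± SD over 3 libraries unless single libraries are listed. Fold changes are inhibitor over DMSO with their standard error (SE) from the edgeR model across all genes. Among 13815 tested genes 3446 were higher and 3667 lower with the inhibitor (edgeR quasi-likelihood test, Benjamini-Hochberg adjusted p under 0.05). Scaling by library totals alone moved the median over all tested genes up by 0.11 (log2) and gave 4888 higher and 2842 lower. Kat8 itself was at 16.1 ± 0.727 CPM with DMSO and 20.8 ± 0.351 CPM with the inhibitor (SD, n = 3), which is no measure of inhibition because the compound acts on the protein.

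With the inhibitor, mRNA of the receptor Ednrb stood about 6.05 times as high and mRNA of the ligand Edn1 3.46 times as low, while the protease Ece1 and the receptor Ednra differed by no more than their spread between libraries. All 4 members were tested across all genes, and 2 of them were called (51.5% of all tested genes were), Ednrb as higher (24.9% of all) and Edn1 as lower (26.5%). Both also had groups whose libraries did not overlap, as did 60.6% of all tested genes (30.3% in each direction). Since this contrast chose the members, nothing is read from these counts.

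Ednrb (ENSMUSG00000022122) spans bases 103814625 to 103844402 of chromosome 14 (mm10, minus strand) and shares exon bases with no other annotated gene. The DMSO libraries held 333, 412 and 466 Ednrb counts and the inhibitor libraries 2796, 2991 and 2766. Scaled, these were 18.4, 17.8 and 20.3 CPM in the DMSO libraries and 108, 119.5 and 115 CPM in the inhibitor libraries. Every inhibitor library was far above every DMSO library, and the 3 libraries of a group lay close together (coefficient of variation 7.06% and 5.21%). Group means were 18.8 ± 1.33 and 114 ± 5.93 CPM (SD, n = 3), and the log2 fold change was 2.60 (SE 0.069). Of the 13815 tested genes, 30 had a larger log2 fold change.

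The choice of Ednrb rested on an order of 8. Ranked were called genes with a symbol, a mean of 5 CPM or above where they were higher, and groups that did not overlap. Predicted genes (Gm and Rik names) were left out. Among those kept, Ednrb ranked 5 by fold change, between Cgref1 (2.86, SE 0.16) and the hyaluronidase gene Hyal1 (2.55, SE 0.16). The last gene inside that order was Cck, the cholecystokinin gene (log2 fold change 2.42), and the first outside it was Il1f9, which encodes interleukin-36 gamma (2.30). Serpinb2, a plasminogen activator inhibitor gene at rank 11, was at 566 ± 14.0 CPM with the inhibitor. Per length of exon, Nqo1, a quinone reductase gene at rank 2, and Serpinb2 stood above Ednrb (138 and 818 against 90.7 TPM, a length-scaled level, with the inhibitor).

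**Figure D1:**
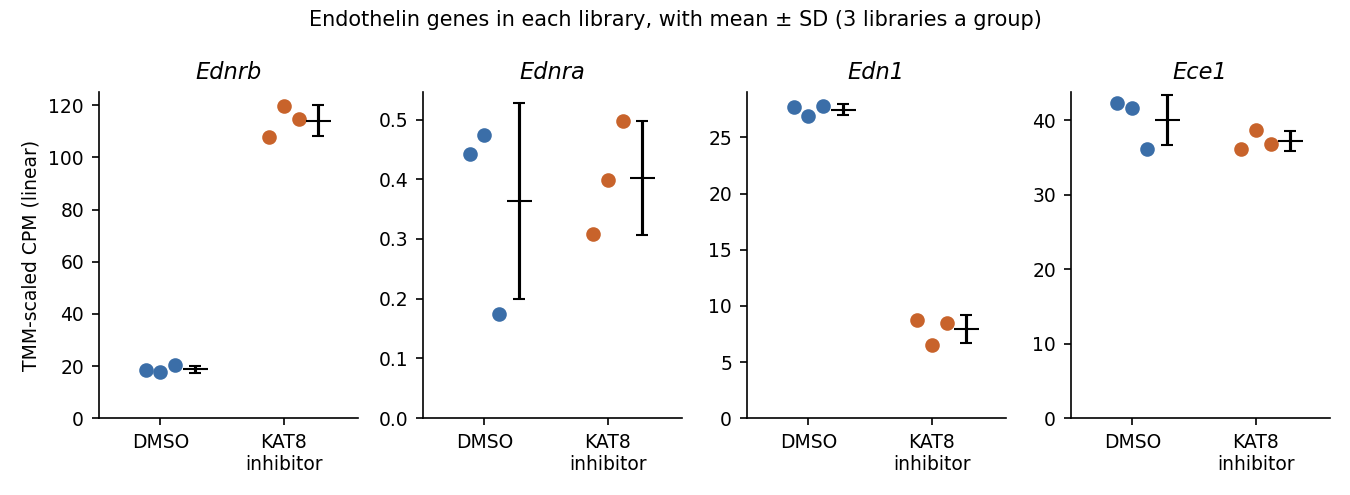
TMM-scaled CPM of Ednrb, Ednra, Edn1 and Ece1 (linear axes from 0, 1 panel a gene) in 3 DMSO libraries (blue) and 3 KAT8-inhibitor libraries (orange), with the group mean and SD in black. The groups stand apart for Ednrb (17.8 to 20.3 against 108 to 119.5) and Edn1 (26.9 to 27.8 against 6.51 to 8.78) and overlap for Ednra and Ece1.

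The other receptor was close to the limit of detection. Ednra (ENSMUSG00000031616, chromosome 8, 77663031 to 77724464, minus strand) had 8, 11 and 4 counts in the DMSO libraries and 8, 10 and 12 in those with inhibitor. These correspond to 0.442, 0.475 and 0.174 CPM and to 0.308, 0.400 and 0.498 CPM, and the groups overlapped. A library with 0 counts would allow a level of up to 0.116 to 0.166 CPM (3 counts; counting error only), so Ednra was only just above what these depths can resolve. The log2 fold change was 0.15 with an SE of 0.447, and it was −0.20 without DMSO replicate 3 and −0.024 without inhibitor replicate 3, so no direction can be given. A difference between the groups was not detectable at this depth. An exon of Ednra shares 91 bases with a gene on the opposite strand (4933431K23Rik), and whether strand was used in counting is not given in the sources used here.

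Of the 3 endothelin genes, Edn1 alone was detected. Edn2 and Edn3 had 0 counts in all 6 libraries, which allows up to 0.116 to 0.166 CPM in a library. Edn1 (ENSMUSG00000021367, chromosome 13, 42301476 to 42307990, plus strand) was counted 502, 623 and 637 times in the DMSO libraries and 228, 163 and 205 times in the inhibitor libraries. Scaled, it was at 27.7, 26.9 and 27.8 CPM after DMSO and at 8.78, 6.51 and 8.51 CPM with the inhibitor. The DMSO libraries were almost level with each other (coefficient of variation 1.85%), and the inhibitor libraries were all lower and more spread (15.6%). With 3 libraries a group, and fewer counts in the inhibitor libraries, this difference in spread was not tested. Group means were 27.5 ± 0.508 and 7.93 ± 1.24 CPM (SD, n = 3), and the log2 fold change was −1.79 (SE 0.112). Of the tested genes 283 had a lower log2 fold change. Exons of Edn1 share 35 bases with Gm47118 on the opposite strand.

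Ece1 (ENSMUSG00000057530, chromosome 4, 137862237 to 137965229, plus strand) was at 42.3, 41.6 and 36.1 CPM after DMSO and at 36.1, 38.7 and 36.8 CPM with the inhibitor. The groups overlapped, and the lowest value of each was the same to 3 digits. The mean was 40.0 ± 3.39 CPM with DMSO and 37.2 ± 1.32 CPM with the inhibitor (SD, n = 3). The log2 fold change was −0.10 (SE 0.074), which became 0.0046 with library totals alone. The approximate 95% interval of the log2 difference ran from −0.25 to 0.041, which leaves out changes of the size seen for Ednrb and Edn1. RefSeq lists 4 start sites for Ece1 over 58556 bases, and a count per gene cannot tell transcripts from these apart.

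Between genes, levels were compared per length of merged exons (TPM, the CPM analogue for counts divided by exon length). With DMSO the order was Edn1 (39.2 ± 1.90 TPM), Ece1 (23.1 ± 2.47), Ednrb (13.5 ± 0.970) and Ednra (0.204 ± 0.0934). With the inhibitor it was Ednrb (90.7 ± 4.99 TPM), Ece1 (23.8 ± 0.842), Edn1 (12.6 ± 2.00) and Ednra (0.249 ± 0.0612). In neither group did the 3 libraries of a gene overlap those of its neighbour in the order. The ligand was thus the highest of the 4 in every DMSO library and the receptor Ednrb the highest in every inhibitor library. The level of Ednrb per length was 0.332 to 0.367 times that of Edn1 in the DMSO libraries and 6.15 to 9.20 times in the inhibitor libraries. Against Ednra, the level of Ednrb was 48.1 to 149.5 times as high with DMSO and 296 to 449 times as high with the inhibitor, ratios that rest on 4 to 12 counts of Ednra. Among 13775 tested genes with a known length, Ednrb went from rank 7245 to rank 1749, Edn1 from rank 3674 to rank 7849, and Ece1 from 5405 to 5669.

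**Figure D2:**
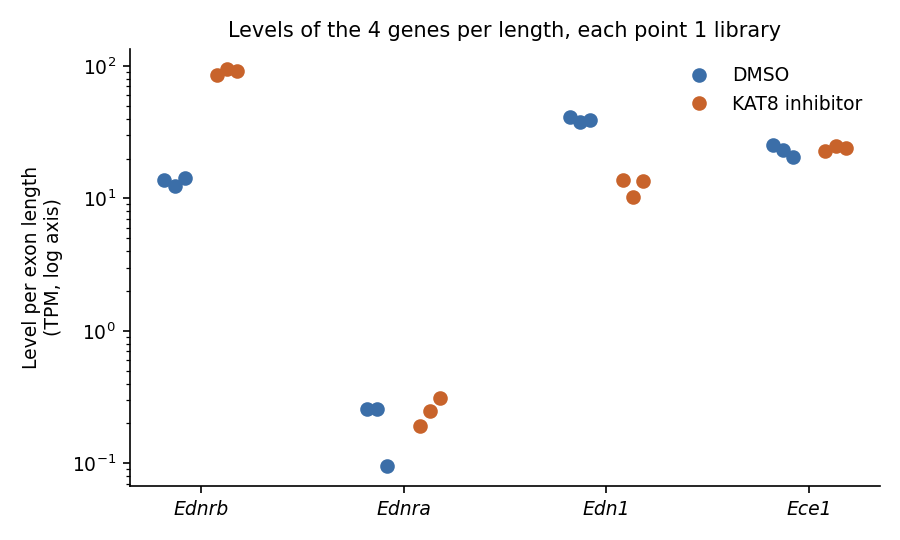
Level per exon length (TPM, log axis) of the 4 genes in each of 3 DMSO (blue) and 3 KAT8-inhibitor libraries (orange). Edn1 is the highest gene in the DMSO libraries (37.5 to 41.2 TPM) and Ednrb in the inhibitor libraries (85.1 to 94.7 TPM), with Ece1 between 20.5 and 25.4 TPM throughout.

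Promoter letters are shown for Ednrb and Edn1 because these members differed most, in opposite directions. In the RefSeq windows (build GRCm38.p6, 250 bases before to 50 after a start site) 4 motifs were searched on both strands, and all 4 members had at least 1 window. The cores were GCGTG, bound by the aryl hydrocarbon receptor, TGACNNNGC, the antioxidant response element, TGANTCA, the AP-1 site, and TGACGTCA, the cyclic AMP response element. The AP-1 letters can share bases with the antioxidant core. Ednrb held GCGTG at 2 places. The first lay 99 to 95 bases before its start on the opposite strand, and the other 32 to 36 bases after the start on the gene's strand. Edn1 held TGACNNNGC 194 to 186 bases before its start. Windows of Ece1 also held GCGTG, and that of Ednra held none of the 4 motifs. Matches are in capitals, read 5′ to 3′ on the strand of the gene.
Ednrb upstream match, chr14:103843786-103843810, minus strand: ttcattgggaCACGCaccctcccca
Ednrb downstream match, chr14:103843656-103843680, minus strand: ccagcgggtgGCGTGcgcccaagtt
Edn1 match, chr13:42301272-42301300, plus strand: tccaatggggTGACTTTGCttctggagaa
Such letters are common. Of 32851 windows of 300 bases, 32.4% held GCGTG and 12.4% TGACNNNGC, while TGANTCA (7.81%) and TGACGTCA (1.79%) were in no member's window. The Ednrb window was 58.7% G or C and the Edn1 window 51.3%, where the median over all windows was 52.7%. The shares over all windows were not matched for this. The RefSeq start of Ednrb lies 701 bases inside the 5′ end of the GENCODE gene, so the window is that of a shorter transcript. A match is a description of the letters and not evidence of binding.

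The libraries carried the markers of macrophages and also those of other cells. Macrophage genes were abundant with DMSO, for example Lyz2 (lysozyme, 8596 ± 632 CPM), Cd68 (1504 ± 178 CPM) and Adgre1 (F4/80, 917 ± 20.9 CPM). Of 8 such markers 6 were lower with the inhibitor and Csf1r and Cd68 did not pass, and their summed level went from 11861 to 13535 CPM with DMSO to 7562 to 7640 CPM with the inhibitor. With library totals alone 1 of the 8 was higher and 5 lower. All 11 smooth muscle and stromal markers were detected, at a summed 4788 to 5606 CPM with DMSO and 2062 to 2212 CPM with the inhibitor. Of these 9 were lower, among them Col1a2, a collagen gene (1701 ± 115 to 669 ± 20.2 CPM), and Acta2, smooth muscle actin (462 ± 17.8 CPM with DMSO, log2 fold change −3.21). Pdgfra (418 ± 30.3 and 442 ± 20.5 CPM), a receptor of fibroblasts, and Lum did not pass. With library totals alone 1 stromal marker was higher. In RNA of whole cultures, fewer cells of a type and less RNA per cell cannot be told apart. Which cells the marker transcripts came from was not tested.

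Markers of endothelial cells and neural crest derivatives, the textbook sites of Ednrb, were detected in part. Among 7 endothelial markers 3 were tested, of which 2 fell and Cdh5 (1.11 ± 0.209 and 1.17 ± 0.0196 CPM) did not pass. Of the others, Emcn was at 0 in all 6 libraries, and Pecam1 (0.306 ± 0.231 and 0.227 ± 0.0466 CPM), Tek and Tie1 were too low to be tested. Vwf, von Willebrand factor, was at 51.1 ± 1.08 CPM with DMSO and fell to 9.40 ± 0.386 CPM, a log2 fold change of −2.44 (SE 0.064, edgeR adjusted p = 2.01e-07), and Kdr fell by 0.62 on the log2 scale. The pigment cell enzymes Dct, Tyr and Tyrp1 were at 0 in all libraries. So were Sox10 and S100b of Schwann cells and glia. Of 3 tested genes in that list of 6, Mbp (66.7 ± 1.70 to 50.1 ± 2.57 CPM) and Ncam1 fell and 1 did not pass. Mast cell and basophil markers summed to at most 2.09 CPM in any library, and Kit, the most abundant of them, fell from 1.56 ± 0.239 to 0.503 ± 0.210 CPM. Every summed list with levels above 5 CPM was lower with the inhibitor. With DMSO, most of the endothelial sum was Vwf and most of the glia sum was Mbp, so these sums mainly follow single genes. Whether cells of these types were present, and what part they had in the difference of Edn1 or Ednrb, was not tested.

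**Figure D3:**
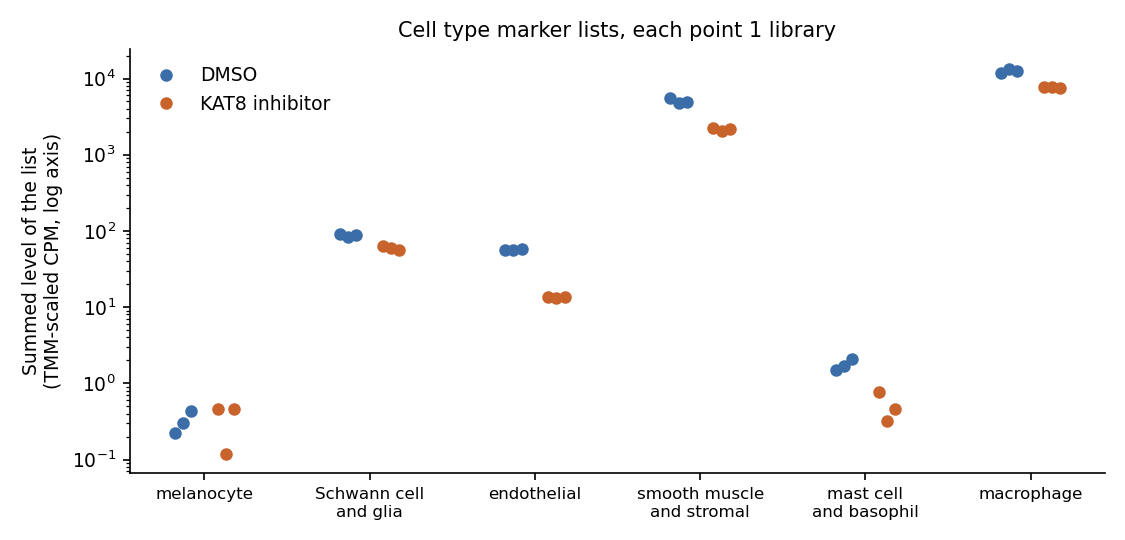
Summed TMM-scaled CPM (log axis) of 6 marker lists in each of 3 DMSO (blue) and 3 KAT8-inhibitor libraries (orange). The stromal sum is 4788 to 5606 with DMSO and 2062 to 2212 with the inhibitor, the endothelial sum 55.7 to 57.2 and 13.3 to 13.7, and the pigment cell sum is at most 0.462 in all 6.

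The wider endothelin pathway was covered by 10 lists with 101 genes besides the members, of which 80 passed the filter on low counts and 12 were at 0 throughout. Of the 80, 23 rose, 35 fell and 22 did not pass (72.5% called, background 51.5%), with a median log2 fold change of −0.07 against 0.01 for all tested genes. With library totals 28 rose and 29 fell. For each list below, the shares to compare are those over all tested genes, 24.9% higher and 26.5% lower. The 80 passed through their level, so their share is not that of the whole pathway. The background was not matched for level. With a filter at a mean of 5 CPM, 2904 of 10470 tested genes were higher and 3006 lower. The lists were also chosen with earlier results of these data known, so the 72.5% is a description only. The stromal markers above (9 of 11 lower) moved in the same libraries as every list, and their part was not tested.

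Of 10 other proteases that ripen or destroy endothelin, 6 were tested and 4 were too low. Of the 6, 4 fell and 1 rose (median −0.87), where 26.5% of all tested genes were lower and 24.9% higher. Pcsk6, a furin-type convertase, fell from 9.11 ± 0.999 to 2.60 ± 0.510 CPM (log2 fold change −1.80, SE 0.17, edgeR adjusted p = 5.28e-05). Furin itself fell from 175 ± 9.88 to 123 ± 13.6 CPM (−0.51, SE 0.082, edgeR adjusted p = 0.00118). The other 2 that fell, named after their values were seen, were the convertase Pcsk5 (−2.21) and neprilysin, Mme (−1.24), which degrades endothelin. The riser, named in the same way, was Pcsk7 (0.22). Its exons overlap those of Tagln and Rnf214 on the opposite strand, and it no longer passed without DMSO replicate 1 or 3 or without inhibitor replicate 1 or 2, which left 0 risers. Ece2, a relative of Ece1, was at 19.3 ± 2.52 and 18.5 ± 0.899 CPM and did not pass, and shares exon bases with Gm49333 on the same strand.

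The G protein subunits to which endothelin receptors couple moved in both directions. Of 9 tested 3 rose and 4 fell (median −0.08). Gna13 rose from 265 ± 4.75 to 364 ± 3.41 CPM (log2 fold change 0.46, SE 0.037, edgeR adjusted p = 2.63e-05). Gnai1, an inhibitor of adenylyl cyclase, fell from 8.91 ± 0.812 to 4.69 ± 0.870 CPM (−0.92, SE 0.15, edgeR adjusted p = 0.00128). Its more abundant relatives Gnai2 (0.25) and Gnai3 (0.22) rose. Gnaq, the main route to calcium release, was at 120 ± 2.80 and 123 ± 1.86 CPM and did not pass, and neither did Gna11. These last 4 were named after their values were seen.

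In the calcium and diacylglycerol arm, 5 of 13 genes rose and 3 fell (median 0.08). Itpr2, a calcium release channel, rose from 38.8 ± 1.92 to 56.6 ± 1.71 CPM (log2 fold change 0.55, SE 0.058, edgeR adjusted p = 0.000117). Prkcd, a protein kinase C, fell from 541 ± 4.73 to 377 ± 11.4 CPM (−0.52, SE 0.040, edgeR adjusted p = 1.9e-05). The number that rose was 3 without DMSO replicate 2 or 3 or inhibitor replicate 1 or 2, and 2 without inhibitor replicate 3.

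Regulators that silence receptors were evenly split, with 6 of 16 higher and 6 lower (median 0.10). Leaving out each library gave 4 to 5 higher and 5 to 6 lower. Arrb1, an arrestin that uncouples receptors from G proteins, rose from 22.3 ± 1.19 to 36.7 ± 3.10 CPM (log2 fold change 0.72, SE 0.080, edgeR adjusted p = 0.000158). Its paralog Arrb2, named after its values were seen, fell from 67.1 ± 1.57 to 57.2 ± 1.21 CPM. Rgs3, which speeds the switching off of G alpha subunits, fell from 30.9 ± 0.751 to 21.5 ± 1.32 CPM (−0.52, SE 0.069, edgeR adjusted p = 0.00038).

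In the arm that drives contraction, 6 of 10 genes fell and 2 rose (median −0.21). The largest falls were those of Myl9, a myosin light chain of smooth muscle, from 27.7 ± 1.42 to 2.63 ± 0.408 CPM (log2 fold change −3.39, SE 0.12, edgeR adjusted p = 4.77e-07), and Mylk, the kinase that activates it, from 13.8 ± 1.43 to 3.26 ± 0.187 CPM (−2.07, SE 0.12, edgeR adjusted p = 4.22e-06). Both are known from contractile cells and fell in the same libraries as Acta2. Which cells their transcripts came from was not tested. The 2 that rose, named after their values were seen, were the protein kinase genes Rock1 (0.37) and Rock2 (0.22).

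Of 7 nitric oxide and prostanoid genes 2 rose and 4 fell (median −0.37). Ptgis, prostacyclin synthase, fell from 228 ± 6.37 to 137 ± 3.97 CPM (log2 fold change −0.74, SE 0.043, edgeR adjusted p = 4.82e-06). Ptgs2, the inducible cyclooxygenase upstream of it, rose from 665 ± 37.6 to 1059 ± 40.8 CPM (0.67, SE 0.054, edgeR adjusted p = 2.48e-05). Endothelial nitric oxide synthase, Nos3, had 3 to 13 counts a library and was not tested. The number that fell was 2 with library totals and without DMSO replicate 3, inhibitor replicate 1 or inhibitor replicate 2, and without inhibitor replicate 1 the number that rose was 1.

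**Figure D4:**
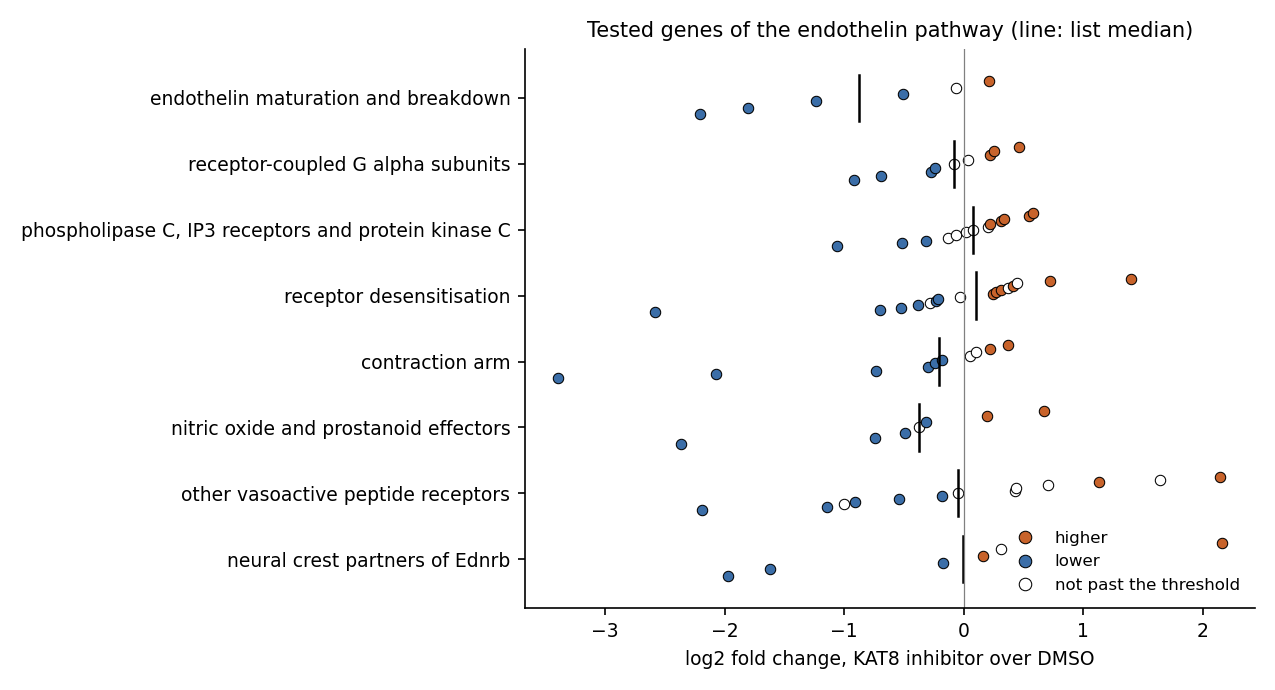
Log2 fold changes (KAT8 inhibitor over DMSO) of tested pathway genes, the 4 members left out, by list, coloured orange where higher, blue where lower and white where not past the adjusted p of 0.05. Black lines are list medians, from −0.87 for endothelin maturation and breakdown to 0.10 for receptor desensitisation, and the lowest point is Myl9 at −3.39.

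Receptors for other vasoactive peptides were called about as often as all tested genes (53.8% against 51.5%). Of 20 listed, 13 were tested and 6 were at 0 in all libraries. Of the 13, 2 rose and 5 fell (median −0.05). Vipr2, a receptor for vasoactive intestinal peptide, rose from 0.406 ± 0.192 to 1.86 ± 0.185 CPM (log2 fold change 2.14, SE 0.31, edgeR adjusted p = 0.000683). Avpr1a, a vasopressin receptor, fell from 6.22 ± 0.942 to 2.81 ± 0.419 CPM (−1.14, SE 0.17, edgeR adjusted p = 0.000703). The other riser, named after its values were seen, was the bradykinin receptor Bdkrb2 (1.13), and without inhibitor replicate 2 or 3 the number that rose was 1.

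Of 10 genes that work with Ednrb in neural crest, 3 were at 0 in all libraries, among them the transcription factors Sox10 and Pax3. Of 6 tested, 2 rose and 3 fell (median −0.0037). Gfra1, a co-receptor for the growth factor Gdnf, fell from 1.00 ± 0.254 to 0.252 ± 0.0784 CPM (log2 fold change −1.97, SE 0.36, edgeR adjusted p = 0.0023). Kit, the receptor for stem cell factor, fell by 1.62 on the log2 scale (SE 0.32, edgeR adjusted p = 0.00326). The 2 that rose, named after their values were seen, were Gdnf (0.175 ± 0.0451 to 0.783 ± 0.141 CPM), and the transcription factor Zeb2 (0.16).

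The genes around Ednrb on chromosome 14 were described next. Within 1 Mb of either end of the gene the table held 12 genes, of which 8 were tested, and 3 of these rose, 3 fell and 2 did not pass (median log2 fold change 0.13). Over all tested genes 24.9% were higher and 26.5% lower, and with 8 genes nothing particular to the locus is read from the count. The nearest tested gene lay 110 kb beyond the end of Ednrb and was Slain1, which encodes a microtubule-binding protein. It was at 1.28 CPM with DMSO and 0.555 CPM with the inhibitor (log2 fold change −1.20, SE 0.43, edgeR adjusted p = 0.0439). Its 48 counts in DMSO replicate 2 stood above the other libraries (10 to 20), and without that library the edgeR adjusted p was 0.172. It was 0.0507, 0.110 and 0.122 without inhibitor replicate 1, 2 and 3, and 0.0551 with library totals. Next came Scel, the sciellin gene, 202 kb away, which fell from 6.12 to 0.663 CPM (−3.19, SE 0.17).

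Further out, Acod1, the itaconate-producing enzyme of activated macrophages, fell from 1945 to 1248 CPM (log2 fold change −0.64, SE 0.061). Mycbp2 (0.34) and Kctd12 (0.61) were among those that rose, and exons of Kctd12 overlap Gm26778 on the opposite strand. On the other side of Ednrb, the nearest tested gene was Rnf219 at 633 kb (13.1 and 14.0 CPM), which did not pass. None of the 8 rose as much as Ednrb, whose log2 fold change of 2.60 compares with at most 0.61 among them. Ednrb was picked for its large rise, so nothing about the locus is read from its place above its neighbours.

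**Figure D5:**
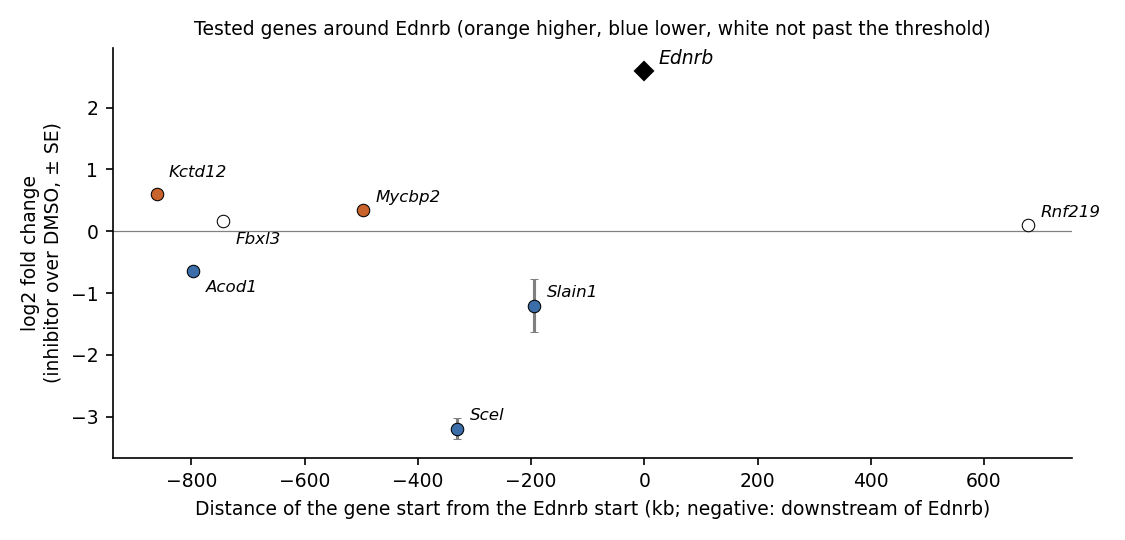
Log2 fold change (± SE) of 7 of the 8 tested genes within 1 Mb of Ednrb against the distance of their start from the start of Ednrb in kb, with negative values downstream. Orange genes were higher, blue lower and white not past the threshold. Ednrb (black, 2.60), which was picked for its large rise, stands above all of them, and Scel is lowest at −3.19.

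The genes whose profile over the 6 libraries was nearest to that of Ednrb were Cck, Hyal1, Cgref1, Serpinb2 and Il1f9. Likeness was the Euclidean distance between log2 CPM profiles centred on their own mean. It was taken over 10366 tested genes with a symbol and a mean of at least 5 CPM where higher, without Gm and Rik names. The 5 distances ran from 0.410 to 0.578. The libraries form 2 groups, so this distance mainly records the size of the group difference. Cck was nearest, at 1.27, 1.73 and 1.66 CPM with DMSO and 8.48, 8.39 and 8.34 CPM with the inhibitor. Serpinb2 was the most abundant of the 5, at 124 ± 5.88 and 566 ± 14.0 CPM. The 5 genes lie on 4 chromosomes, none of them chromosome 14, and Hyal1 shares exons with Naa80 and Hyal3 and Serpinb2 with Serpinb10.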

How the data were processed

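The authors deposited raw read counts per Ensembl gene, not normalized. The tools named per the submitters' processing notes are HISAT2, StringTie (1.3.0) and edgeR, and the build is mm10. Roles of the tools, the counting program, annotation and strand setting were not given in the sources used here. Symbols came from a table of gene names (478 genes matched none), coordinates and exon lengths from GENCODE M21 (same build), and promoter letters from RefSeq. Of 34745 genes 401 had no length there.

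The test was edgeR's quasi-likelihood test (edgeR 4.0.16, R 4.3.3, TMM, filterByExpr with a minimum count of 10, pretreatment as the factor). On simulated counts it recovered 60.6% of 1.5-fold, 79.1% of 2-fold and 98.5% of 4-fold changes. There, 12 of 169 calls were on unchanged genes. Far fewer genes were changed in the simulation than were called in the data, so it does not stand for this contrast. Each SE was derived as the size of the log2 fold change divided by the root of its F statistic. Libraries of a group differed by more than sampling noise (chi-square per degree of freedom 9.25 to 14.3). Members and lists were chosen with earlier results of these data known. Named genes were the 2 called genes with the smallest p in each list at 1 CPM or more, the most abundant marker of each cell type, the 5 profiles nearest to Ednrb, its nearest tested and all called neighbours, and genes beside it in the order of rises. Alternatives were other scalings and filters, DESeq2 1.42.0, a replicate block, an adjusted p under 0.01, a 0.5 Mb window, longest transcripts, and leaving out each library. Protein comparisons were not made, and a few genes of the lists and the neighbourhood are not reported here.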

Additional observations from a re-analysis of the deposited data

How the results depend on the processing

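The log2 fold change of Ednrb stayed between 2.55 and 2.71 and that of Edn1 between −1.87 and −1.67 over 12 alternatives. With library totals Ednrb was at 2.71 and Ece1 at 0.0046, both shifted with the median of all genes. An adjusted p under 0.01 gave 2257 higher genes and 15 higher pathway genes. A filter at a mean of 5 CPM, under which Ednra could not be fitted, left 1 lower neighbour, and a 0.5 Mb window 1 higher neighbour. With the longest transcript as length, Ednrb was at 11.2 and 74.9 TPM, Edn1 at 31.4 and 10.01, and Ece1 at 20.3 and 20.8 (DMSO and inhibitor), with the same order in each group. Leaving out each library gave 17 to 21 higher and 29 to 34 lower pathway genes. Same-numbered replicates did not deviate together (r from −0.024 to 0.024 across genes). With so few libraries this cannot settle whether the numbers pair samples, which the labels do not say. The replicate block gave 23 higher and 33 lower pathway genes and an Ednrb log2 fold change of 2.60. Slain1 lost its call under 7 of its alternatives. Depth limits Ednra, at 4 to 12 counts a library.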
